A study of Mus musculus with 12 samples.

Results

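The 10 immediate early stress transcription factor genes Fos, Fosb, Fosl2, Jun, Junb, Jund, Atf3, Egr1, Ier2 and Klf6 were examined in chromatin of irradiated mouse back skin. The genes were taken by name, and a peak was counted for a gene when its midpoint lay inside the gene or within 5 kb of either end (RefSeq gene table of GRCm38.p6, whose coordinates are those of mm10). All 10 matched, among 21887 protein-coding genes. Chromatin immunoprecipitation used antibodies to p53 or to histone H3 trimethylated at lysine 4 (H3K4me3), on skin of mice aged 8 to 10 weeks given 5 Gy of ionizing radiation. The labels describe 12 samples in 6 groups of 2. Each was taken at T0 or 6 h, with the p53 antibody in K17KO and in wild-type (WT) animals and the H3K4me3 antibody in WT animals only. Radiation is listed for all 6 groups, those at T0 included. K17KO is spelled as in the labels, which do not say how many animals went into a sample.

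The analysis used 3 peak lists, 1 for K17KO p53 (1101 peaks), 1 for p53 with no genotype in its name and taken here as WT (2909 peaks), and 1 for H3K4me3 (5464 peaks). None separates T0 from 6 h or names a library or control, so the values carry no error between replicates, and T0 was not compared with 6 h. The median peak rested on 11 fragments in the K17KO p53 list, 7 in the WT p53 list and 148 in the H3K4me3 list. The H3K4me3 list held a peak at 3 of 10 keratinocyte markers (Krt1, Krt10 and Krt15), a share near the 23.9% of all protein-coding genes with one, and none at the defining genes Krt5 and Krt14. It also held a peak at 1 of 6 dermal fibroblast markers, 1 of 4 melanocyte markers and 1 of 3 adipocyte markers, and at 0 of 4 endothelial, 0 of 5 immune, 0 of 4 skeletal muscle and 0 of 8 other-organ genes.

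Immediate early genes are switched on within minutes of growth factor, wound or stress signals, without new protein synthesis, through kinase cascades that act on factors already bound at their promoters. The Fos and Jun proteins pair through leucine zippers to form AP-1, which binds enhancers of genes for proliferation, matrix remodelling and keratinocyte differentiation. Atf3 is a related zipper protein induced by stress and known as a p53 target in other cells, and Egr1 and Klf6 are zinc finger factors. H3K4me3 is laid down on nucleosomes beside active or poised promoters, while the start site itself is usually depleted of nucleosomes.

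The promoter table held 8 of the 10 genes, all but Egr1 and Ier2. The 250 bases before the start are shown for Jun and Atf3, whose starts lay between H3K4me3 peaks, for Fos, whose peak began just after the start, and for Klf6, which had no peak in any list. Sequences are from RefSeq (GRCm38.p6), 5′ to 3′ on the coding strand, at chr4:95052223-95052472 (minus), chr1:191183334-191183583 (minus), chr12:85473640-85473889 (plus) and chr13:5861239-5861488 (plus). Capitals mark matches to TGACATCA and to the core of the cAMP response element, TGACG, on either strand, and to the TATA box, TATAAA.
Jun: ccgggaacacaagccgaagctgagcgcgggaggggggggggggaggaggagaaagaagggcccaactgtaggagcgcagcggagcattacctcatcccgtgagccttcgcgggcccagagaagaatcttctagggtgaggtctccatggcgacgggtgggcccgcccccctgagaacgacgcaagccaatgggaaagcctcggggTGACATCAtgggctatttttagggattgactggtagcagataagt
Atf3: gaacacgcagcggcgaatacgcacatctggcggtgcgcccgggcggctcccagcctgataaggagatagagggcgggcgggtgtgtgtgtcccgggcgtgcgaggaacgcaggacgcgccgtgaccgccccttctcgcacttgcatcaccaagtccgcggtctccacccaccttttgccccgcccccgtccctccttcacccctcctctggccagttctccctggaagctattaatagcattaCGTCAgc
Fos: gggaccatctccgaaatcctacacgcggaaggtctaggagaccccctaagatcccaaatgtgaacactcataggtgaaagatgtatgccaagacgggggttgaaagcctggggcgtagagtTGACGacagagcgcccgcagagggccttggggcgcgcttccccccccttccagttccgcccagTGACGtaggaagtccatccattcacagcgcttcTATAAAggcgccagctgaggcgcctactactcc
Klf6: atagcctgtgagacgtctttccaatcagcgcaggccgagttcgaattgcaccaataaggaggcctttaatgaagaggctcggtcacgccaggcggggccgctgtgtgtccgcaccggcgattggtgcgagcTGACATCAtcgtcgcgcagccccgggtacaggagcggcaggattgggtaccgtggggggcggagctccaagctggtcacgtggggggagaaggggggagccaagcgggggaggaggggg

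The element TGACATCA, a variant of the AP-1 and cAMP response elements, began 45 bases before the start of Jun and 119 before that of Klf6. It was found on either strand in 2 of the 8 windows and in 2.86% of 21263 protein-coding windows of the same length. The core TGACG was found at Fos, at 129 and at 66 bases before the start, and at Fosb, Junb and Atf3, that is in 4 of the 8 windows and in 20.2% of all. TATAAA, read on the coding strand only, was found at Fos and in 7.67% of all windows. The AP-1 element TGANTCA, the full element TGACGTCA and the CArG box that serum response factor binds were found in none of the 8 windows (6.13%, 1.92% and 1.39% of all). TGACG is also part of TGACGTCA, so these counts are not separate. Sequence farther upstream or after the start was not read, and Egr1 and Ier2 had no window. Absence from the windows therefore does not show that a gene lacks the element. The 8 windows ranged from 47.6% G and C at Jund to 68.8% at Fosb, with a median of 55.6% over all windows.

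H3K4me3 peaks lay at 8 of the 10 genes. By the same rule, 23.9% of all protein-coding genes had one, and 19.8% of those no longer than Fosl2, the longest of the 10 at 21369 bp. At a deposited q-value of at most 0.01, 6 of the 10 kept a peak (Fos, Fosb, Fosl2, Jun, Atf3 and Egr1), against 18.4% of all protein-coding genes. Jund and Klf6 had none. Among the peaks above the list's median fold, 3 of the 10 genes had one (Fosb, Fosl2 and Atf3), against 10.8% of all genes. The 8 genes carried 13 peaks, and 4 of them (Fosl2, Jun, Junb and Atf3) had 2 or more, which was also the case for 920 of the 5226 genes with a peak in the whole list (17.6%). A peak marks an excess over the background that the caller used, which at the median H3K4me3 peak was 90.7 fragments, against 1.39 in the K17KO p53 list and 0.992 in the WT p53 list. The sample behind that background is not named, so presence of the mark and a difference from a control that itself carries it cannot be told apart, here or in any H3K4me3 count or fold that follows. A gene without a peak may still carry the mark, and the mark in fewer cells cannot be told apart from less of it per cell. No peak counted for a member had its midpoint inside another protein-coding gene.

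Among the Fos family, whose proteins bind DNA only as a partner in AP-1, Fos itself had 1 peak of 592 bp (chr12:85473978-85474569, mm10). It began 88 bp after the start, with its summit 257 bp after it. It had a deposited fold of 1.56, resting on 210 fragments (95% Poisson interval 183 to 240, counting error only) over a background of 135, with a q-value of 6.66e-06. Fosb had the widest of the 13 peaks, 881 bp (chr7:19308883-19309763), with its summit 1060 bp after the start and a fold of 1.70 (134 fragments over 78.5, q-value 3.04e-05).

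Fosl2, which encodes Fra-2, differed from both in that its 2 peaks lay before the start. The outer one (chr5:32133365-32133602), 2989 bp before the start, had a fold of 1.98 (134 fragments over 67.3) and the lowest q-value of the 13, 9.39e-09. The inner one (chr5:32136002-32136274), 334 bp before the start, had the lowest fold, 1.24 (238 fragments over 192), and a q-value of 0.364. The call at Fosl2 at stricter q-values therefore rested on the outer peak.

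In the Jun family, which supplies the other side of AP-1, Jun had 1 peak on each side of its start. The peak inside the gene (chr4:95051549-95052117) had a fold of 1.50 with 224 fragments over 149 (q-value 2.39e-05), and its summit lay 277 bp after the start. The peak outside it (chr4:95052610-95053189) was weaker, at 1.32-fold with 165 fragments over 124 (q-value 0.183), and lay in Junos, a noncoding gene named for its antisense position. Junb, a Jun protein with its own role in epidermal growth, had 2 peaks inside the gene, at 1.30-fold and 1.27-fold (241 and 250 fragments over 185 and 197), with q-values of 0.0455 and 0.126. Jund, the Jun protein usually made without stimulation, had no peak within 5 kb. Its nearest lay 43.8 kb away inside Pde4c, at 3.33-fold with 29 fragments over 8.01.

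Atf3 had 3 peaks, the most of the 10 genes. They lay inside the gene (chr1:191182614-191183186, summit 278 bp after the start) and 528 and 1751 bp before it. The folds were 1.68, 1.88 and 2.44 in that order, on 164, 66 and 41 fragments over backgrounds of 97.2, 34.6 and 16.2. Fold thus ran opposite to fragments along the gene: the peak with the fewest fragments had the highest fold of the 13. All 3 had a q-value of 0.0018 or lower.

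Of the remaining genes, Egr1 had 1 peak inside the gene, 1640 bp from its nearer end (chr18:34862682-34863012), at 1.58-fold with 102 fragments over 64.3 (q-value 0.00985). Ier2, a short gene that responds to serum and growth factors, had 1 peak 311 bp from its nearer end (chr8:84662397-84662685), at 1.28-fold with 237 fragments over 185 (q-value 0.108). Klf6 stood apart from the others, with its nearest H3K4me3 peak 777 kb away inside Pfkp. Of all protein-coding genes, 89.6% had a peak at that distance or nearer.

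**Figure D1:**
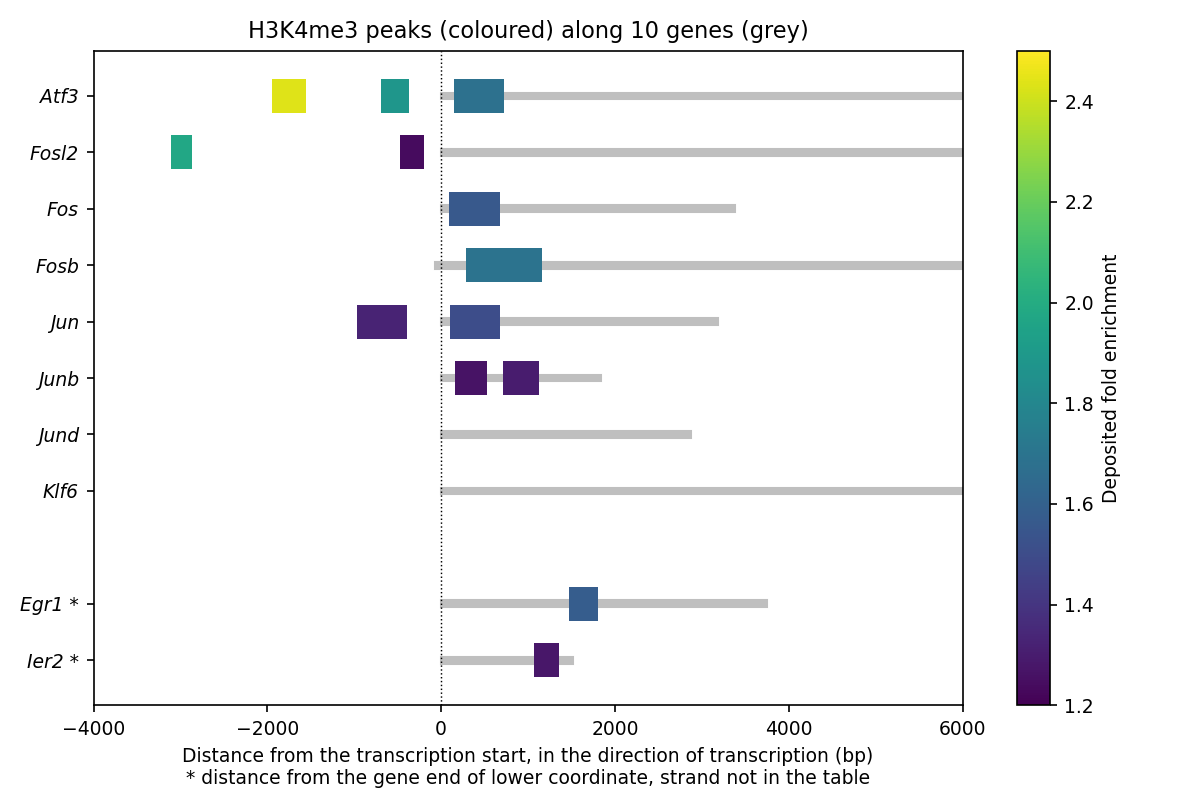
H3K4me3 peaks (coloured by deposited fold enrichment) along the 10 genes (grey bars, cut at the right edge), against distance in bp from the transcription start in the direction of transcription; for Egr1 and Ier2, marked with an asterisk, the distance is from the end of lower coordinate. Inside Fos, Jun, Atf3 and Junb the first peak begins 88 to 160 bp after the start, Jun and Atf3 have peaks on both sides of it, and Jund and Klf6 have none.

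At the 6 genes with peaks and a known start, no peak covered the start itself. The nearest peak edge lay 88 bp from the start of Fos, 105 bp from that of Jun, 147 bp at Atf3, 160 bp at Junb, 198 bp at Fosl2 and 282 bp at Fosb. The window from 250 bases before to 50 after the start overlapped a peak at 1 of these 6 genes, Fosl2. Among 4038 windows of protein-coding genes with a peak midpoint within 5 kb of the start, 28% did. At Jun the window lay between its peaks, 56 bp from the one after the start and 138 bp from the one before it, and at Atf3 98 bp and 114 bp from them. Such a free window with a peak within 1000 bp on both sides was found at 2 of the 6 and at 2.58% of the 4038, a measure chosen after the values of Jun and Atf3 were seen. Of the 11 member peaks with a known start, 6 had their summit after it, beside 74.9% of 3361 summits at all genes with a single start. The summits before the start came from Fosl2, Jun and Atf3 only. Peaks of 1 gene are not independent, and the difference in share was not tested. The median of those 3361 summits lay 217 bp after the start.

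The member peaks were not high in their list by fold. Their folds ranged from 1.24 to 2.44 with a median of 1.56, against a median of 1.66 over all 5464 peaks. Of the 13, 8 lay below that median of the whole list. Over the 4811 peaks at protein-coding genes, the closer comparison, the median fold was 1.61. The backgrounds of the 13 ranged from 16.2 to 197 fragments with a median of 124, against 90.7 over all peaks, and 8 of the 13 lay above 90.7. The share above 90.7 among all 4811 peaks at protein-coding genes was 55.6%. Both Junb peaks, the Ier2 peak and the inner Fosl2 peak had backgrounds that at most 1.94% of the list reached. In this list fold falls as background rises, with a median fold of 3.15 in the lowest of 4 equal bins of background and 1.41 in the highest. Part of this fall is built in, because fold is a ratio over the background and a peak with few fragments is called only at a high fold. The lowest fold called was 1.68 in the lowest bin and 1.22 in the highest. Within their own bin, 5 of the 13 member peaks exceeded the median fold, 0 of 1, 2 of 4, 2 of 3 and 1 of 5 from the lowest bin of background to the highest. The sources used here do not name the library behind the background.

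**Figure D2:**
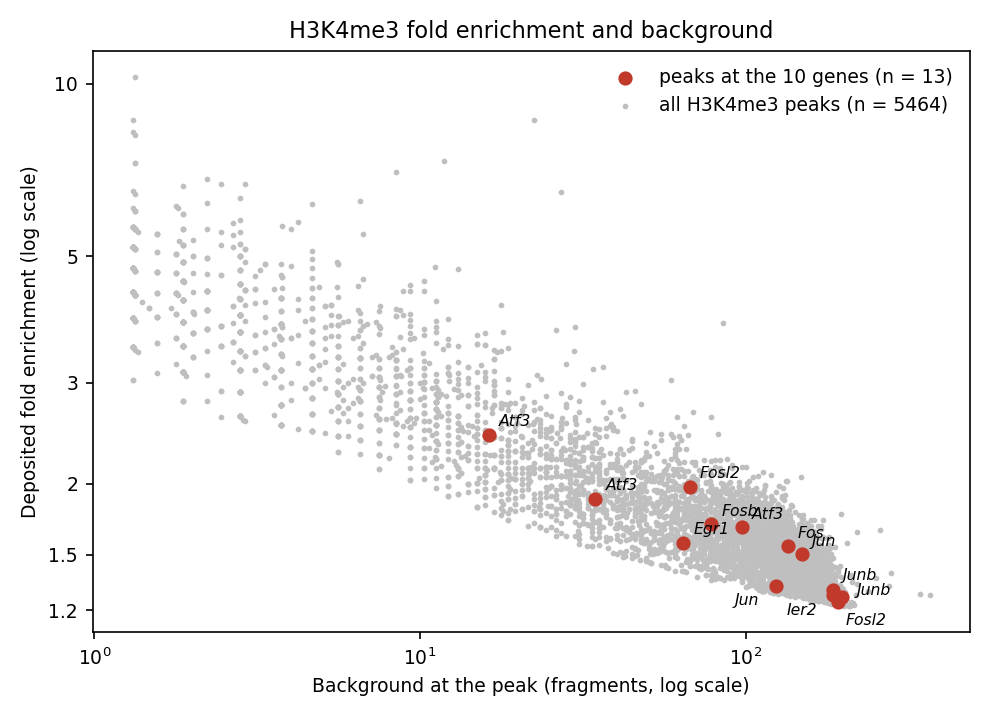
Deposited fold enrichment (log scale) against the background in fragments (log scale) for the 13 H3K4me3 peaks at the 10 genes (red, labelled) and all 5464 peaks (grey). Fold falls as background rises over the whole list, in part because fold is a ratio over that background. The peaks at Junb, Ier2 and the inner Fosl2 peak sit at the lower right end of the list, at 1.24-fold to 1.30-fold.

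Beyond 5 kb, 7 further H3K4me3 peaks lay within 50 kb of a member gene. The highest in fold lay 28.8 kb before Fos (chr12:85444966-85445237), outside any gene, at 5.00-fold and rank 97 of 5464, yet it rested on 14 fragments over 2.0, far fewer than the 210 at the promoter peak. Egr1 had peaks on both sides, 20.5 kb away inside Reep2 (1.85-fold) and 37.1 kb away, 744 bp from Etf1 (3.51-fold, 15 fragments over 3.56). The others lay inside Rtn2 and beside Vasp, near Fosb, inside Get3, near Junb, and inside Pde4c, near Jund.

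Neither p53 list held a peak at any of the 10 genes. The count was 0 of 10 in the K17KO list, where 3.79% of all protein-coding genes had a peak, and 0 of 10 in the WT list, where 6.75% did. At such shares fewer than 1 gene in 10 would have a peak, so the counts of 0 lie near the background and say nothing particular about these genes. Atf3 was among them, with its nearest K17KO peak 157 kb away inside Pacc1 and its nearest WT peak 310 kb away inside Rps6kc1. The depth of the libraries is unknown, so an absent peak is not shown to be absent binding.

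The nearest K17KO p53 peaks lay between 89.2 kb (Egr1, inside Hspa9, 4.63-fold, 8 fragments over 0.945) and 7914 kb away (Klf6). The median was 390 kb over the 10 genes and 581 kb over all protein-coding genes. The peak nearest to both Junb and Ier2 was the same one, 776 and 460 kb away, and that nearest to Jund lay 278 kb away inside Crtc1. Jun lay 2700 kb from its nearest.

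The nearest WT p53 peaks lay between 7.31 kb (Egr1) and 720 kb away (Jun), with a median of 231 kb over the 10 genes and 242 kb over all protein-coding genes. The Egr1 peak (chr18:34872160-34872375) lay outside any gene, at 3.51-fold with 6 fragments over 0.992 and a q-value of 0.221. Junb followed at 17.3 kb (inside Rnaseh2a, 3.99-fold, 7 fragments), then Jund at 20.6 kb (4.52-fold, 8 fragments) and Klf6 at 21.8 kb (3.06-fold, 6 fragments). The Klf6 peak (chr13:5892071-5892286) had a q-value of 0.42, the highest in the WT list and shared with other peaks. Within 100 kb there were peaks for 1 of the 10 genes in the K17KO list, against 15.5% of all genes, and for 4 of the 10 in the WT list, against 28.2%. The lists differ in length, so the distances in K17KO and WT were not compared.

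**Figure D3:**
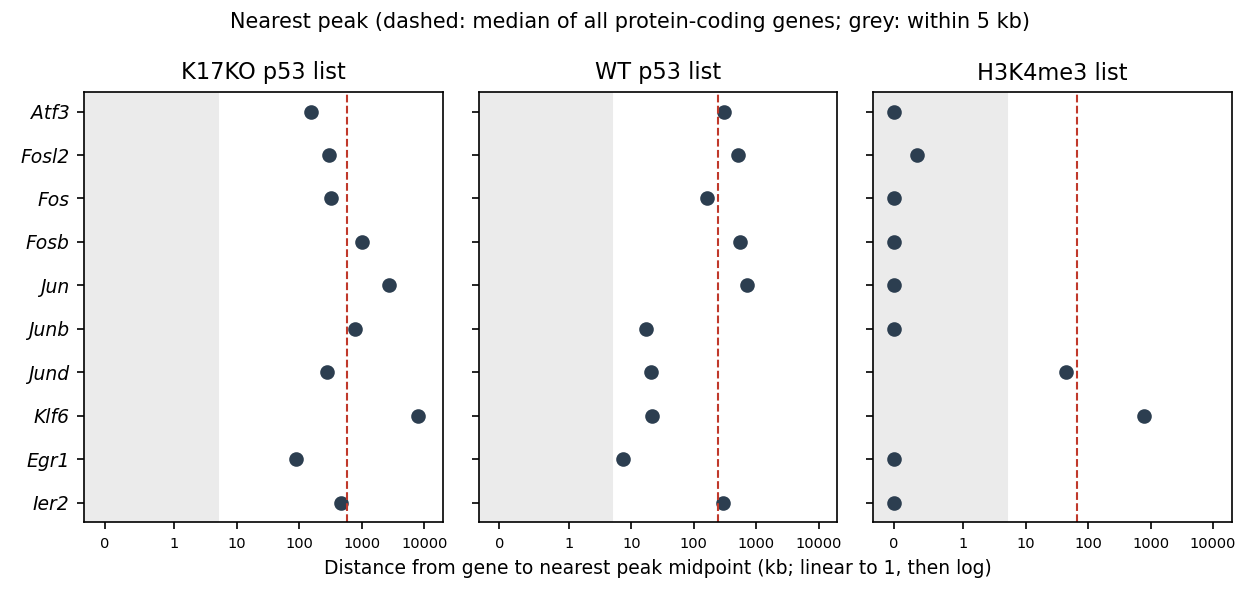
Distance in kb from each of the 10 genes to the nearest peak midpoint in the K17KO p53, WT p53 and H3K4me3 lists (linear to 1 kb, then log scale; 0 is inside the gene). Grey marks 5 kb and the dashed line the median of all protein-coding genes; all K17KO and WT p53 points lie beyond 5 kb, and 8 H3K4me3 points lie within it.

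Other genes of the same response were described from 3 further lists. Of 50 other immediate early genes, 27 had an H3K4me3 peak (54%, against 23.9% of all protein-coding genes), with a median of their highest folds of 1.65 against 1.57 in the 10 genes and 1.62 over all genes with a peak. A count of 2 or more peaks was reached at 13 of the 27 (48.1%), against 17.6% of all protein-coding genes with a peak. The highest folds were at the clock gene Per1 (2.71, 113 fragments over 41.1), the antiproliferative p53 target Btg2 (2.44), the NF-kappaB inhibitor gene Nfkbia (2.27) and Pmaip1, which encodes the apoptosis activator Noxa (2.26). Zfp36l2, an RNA-binding protein gene (2.21), the oncogene Myc (1.91), the kinase gene Sik1 (1.86) and Cebpb, another zipper factor gene (1.73), completed the first 8. The peaks of Zfp36l2 and Cebpb lay in the neighbouring noncoding genes Gm36279 and A530013C23Rik. Of these genes, 0 of 50 had a K17KO p53 peak (against 3.79% of all) and 4 of 50 had a WT p53 peak (8%, against 6.75% of all), namely Zfp36l1 (4.35-fold), Gadd45g (3.90), Btg1 (3.82) and Errfi1 (3.02), each on 7 or 8 fragments. The q-values of these WT peaks were 0.0485, 0.0983, 0.11 and 0.286 in that order.

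Of 21 AP-1 partners and related zipper genes, 8 had an H3K4me3 peak (38.1%, against 23.9% of all protein-coding genes). Of these 8, 0 had 2 or more peaks, against 17.6% of all genes with a peak. Atf6, a sensor of endoplasmic reticulum stress, led at 3.94-fold on 14 fragments, 22572 bp from its nearer end, followed by Nfe2l1 (2.16) and Batf3 (2.13). Nfe2l2, which encodes the oxidative stress factor Nrf2 (1.47), Maf (1.46), Crem (1.43), Atf4 (1.43) and Mafg (1.41, inside the neighbouring gene Sirt7) followed. A K17KO p53 peak was found at 0 of 21 (against 3.79% of all). A WT p53 peak was found at 2 of 21 (9.52%, against 6.75% of all), Atf6 (5.02-fold, 9 fragments, q-value 0.00982) and Jdp2 (3.53-fold, 6 fragments, q-value 0.221). The Atf6 peak lay deep in the gene, 47524 bp from its nearer end, and the Jdp2 peak lay outside its gene, 1760 bp away. The 21 genes were not matched to others for length. The Jdp2 peak was also the WT peak nearest to Fos, 164 kb from it.

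Of 29 upstream kinases and transcription factors, 7 had an H3K4me3 peak (24.1%, against 23.9% of all protein-coding genes). They were the serum response factor gene Srf (1.70, inside the neighbouring gene Cul9), its coactivators Mrtfa (3.54) and Mrtfb (4.21), the cofactor Elk3 (1.36), and the kinases Map2k6 (1.63), Rps6ka5 (1.59) and Mapk9 (1.51). The highest peaks of Mrtfa, Mrtfb and Map2k6 were deep in the genes, 53125, 20819 and 49809 bp from the nearer end, on 12, 15 and 86 fragments. With gene ends only, 5 of the 29 had an H3K4me3 peak, against 21.5% of all protein-coding genes. Of the 7 genes, 1 had 2 or more H3K4me3 peaks (14.3%, against 17.6% of all genes with a peak). K17KO p53 peaks lay at 3 of the 29 (10.3%, against 3.79% of all), at Elk3 (6.65-fold, 12 fragments over 0.956, 1609 bp from its nearer end), Mapk10 (4.41) and Crtc1 (4.40). The H3K4me3 peak of Elk3 lay 438 bp from the same end, but had a q-value of only 0.454. The H3K4me3 antibody was used in WT animals only, so the 2 Elk3 peaks are not from the same genotype. WT p53 peaks lay at 4 of the 29 (13.8%, against 6.75% of all), at Mapk10 (4.02), Mrtfa (3.64), Crtc3 (3.38) and Elk4 (3.15, inside the neighbouring gene Mfsd4a), each on 5 to 7 fragments. Their q-values were weak, at 0.0961, 0.221, 0.221 and 0.42 in that order. Mapk10 was in both p53 lists, with separate peaks at 4251 bp and 19745 bp from an end. The p53 peaks at Crtc1, Mrtfa and Crtc3 lay 19693, 56150 and 8849 bp from the nearer end. The 29 genes were not matched to others for length. Among all genes no longer than 21369 bp the share was lower, 2.26% for K17KO p53 and 3.01% for WT p53. The shares of 10.3% and 13.8% are therefore not shown to exceed that of genes of like length.

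**Figure D4:**
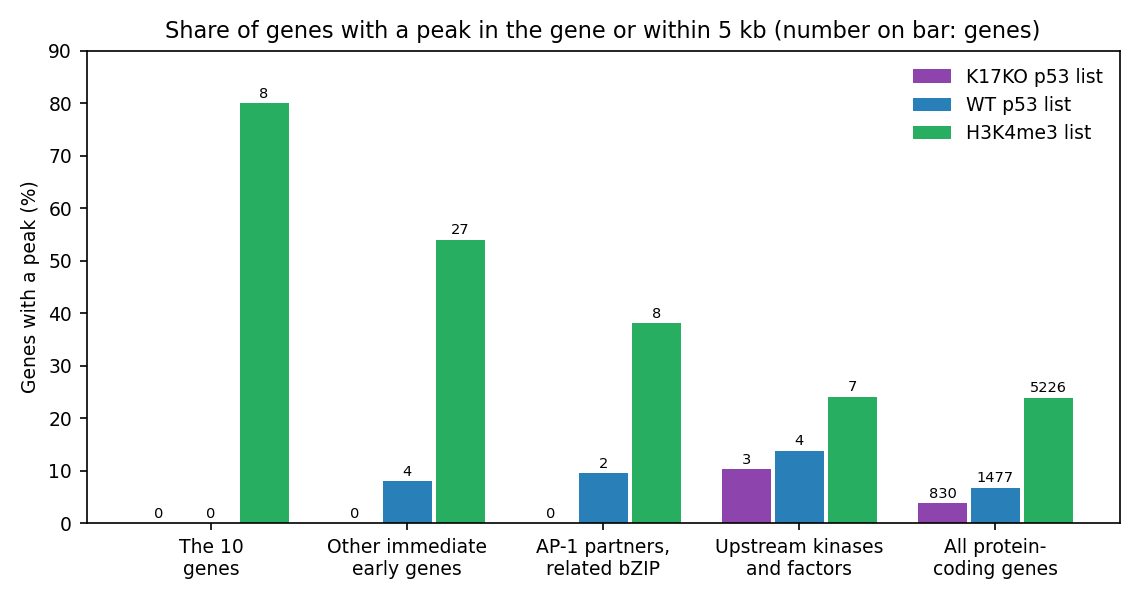
Share of genes (%) with a peak inside the gene or within 5 kb in the K17KO p53, WT p53 and H3K4me3 lists, for the 10 genes, the 3 further lists and all 21887 protein-coding genes; numbers on the bars are genes. The H3K4me3 share is 80% in the 10 genes, 54% in other immediate early genes and 23.9% in all genes, and the 10 genes have 0 in both p53 lists.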

How the data were processed

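The authors deposited 3 peak lists without headers. Bowtie2 2.2.5, SAMtools 1.7, MACS2 2.1.2 and mm10 are named in the submitters' processing notes, with no order. Which libraries, control and threshold lie behind a list is not stated there. The deposited fold enrichment is a ratio over the caller's background. For significance the lists give the caller's deposited −log10 p-value and −log10 q-value, and the deposited score is 10 times the −log10 p without decimals. All were used only within a list.

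Fragments and background were recovered from fold (fragments plus 1 over background plus 1) and p (upper Poisson tail); 100% of peaks in each list matched within 0.001 in −log10 p. Library depth is unknown. Intervals are exact Poisson at 95%.

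Peaks were assigned to genes with Python 3.11.15, pandas 2.3.3, numpy 2.4.6 and scipy 1.17.1, and the steps were tested on simulated data. The 10 genes and the further lists were chosen with earlier results of these data known, so counts stand beside the share of all protein-coding genes, with no test. All 10 genes were named, and up to 8 per further list by fold. Alternatives were windows of 1 and 20 kb, gene ends only, overlap of 1 bp, q-values of 0.1 and 0.01, the upper 50% by fold and shorter genes. Egr1 and Ier2 had no strand in the tables used.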

Additional observations from a re-analysis of the deposited data

How the results depend on the processing

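The number of the 10 genes with an H3K4me3 peak was 8 with windows of 1 and 20 kb, where 21.1% and 32.9% of all protein-coding genes had one. It was also 8 with gene ends only (21.5% of all) and with any overlap of 1 bp (24% of all). At a q-value of at most 0.1 it was 7 (without Ier2, 22% of all), and at 0.01 it was 6 (also without Junb, 18.4% of all). With the 50% of peaks highest in fold it was 3, against 10.8% of all protein-coding genes. The counts there were 13 of 50 other immediate early genes, 3 of 21 AP-1 partners and 3 of 29 upstream genes. With a 20 kb window the upstream genes with a peak were 14 of 29, against 32.9% of all protein-coding genes. The K17KO p53 count was 0 of 10 in all 7 settings, where between 1.91% and 5.94% of all protein-coding genes had a peak. The WT p53 count was 2 of 10 (Junb and Egr1) with a 20 kb window, where 10.8% of all genes had a peak. It was 0 in the other 6, where between 0.822% and 6.76% did. Among protein-coding genes no longer than the longest of the 10, the background share was 2.26% for K17KO p53 and 3.01% for WT p53.

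No paired analysis was possible because the lists name no library or replicate, and for the same reason no replicate was left out. The depth of the libraries behind the lists is unknown, and what it limits was not tested.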
